A study of Mus musculus with 11 samples.

Results

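The genes here, chosen by name with earlier results of these data known, are 10 feedback inhibitors and effectors of mitogen-activated protein kinase (MAPK) signaling. They are the MAPK phosphatases Dusp4, Dusp5, Dusp6 and Dusp10, the Sprouty genes Spry1, Spry2 and Spry4, their relative Spred1, and the kinases Mknk2 and Mapk14. All 10 were among the 54532 genes listed for the pancreas and among the 46078 listed for adipose tissue. In the pancreas Mknk2, Mapk14, Dusp5 and Spred1 were upregulated in mice with obesity-related alcohol-induced acute pancreatitis (OA-AP). In adipose tissue Dusp5, Dusp6, Spry2, Spry4 and Spred1 were upregulated, whereas Mknk2 was downregulated.

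There were 2 control and 3 OA-AP libraries of the pancreas and 3 libraries of epididymal adipose tissue in either group. The labels do not say whether each library came from a different mouse. All mice were wild-type male C57BL/6J mice (labelled C57BL/6) with a labelled age of 16 weeks. From 4 to 5 weeks of age, control mice ate chow and OA-AP mice a high-fat diet, in both cases for 12 weeks. Saline was then injected into the control mice and ethanol at 2 g/kg into the OA-AP mice, intraperitoneally, 2 times 1 h apart, and the mice were killed 12 h after the first injection. Diet, ethanol and pancreatitis therefore differ together between the groups and cannot be told apart. No library of lean mice given ethanol or of obese mice given saline was analysed here.

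In the RAS to ERK pathway, growth factor receptors activate RAS, which drives the kinases RAF, MEK and ERK in turn. ERK signaling induces genes whose products restrain it, among them the dual-specificity phosphatases, which remove phosphate from MAP kinases, and the Sprouty and Spred proteins, which act upstream at the level of receptors and RAS. The kinase p38α, encoded by Mapk14, responds to stress and cytokines, and both ERK and p38 activate MNK2, the product of Mknk2, which phosphorylates the cap-binding translation factor eIF4E. All values below are mRNA levels, and neither phosphorylation nor protein was measured in these libraries.

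Promoter sequences are shown for Dusp5 and Mknk2 because they were the members whose windows held a CArG box, the site at which serum response factor binds. RefSeq sequence (GRCm38.p6) from 250 bases before to 50 bases after the transcription start was used for 8 of the 10 members, not for Dusp4 and Spry4. Both strands were searched, and 1.63% of the 32851 windows of this length held a CArG box. In the Dusp5 promoter a pair of CArG boxes lay side by side, starting at -82 and -72. In the Mknk2 promoter 1 began at -32 and overlapped the letters TATAAA at -30, which 13.6% of windows held. The stretches below are 100 bases long, read 5′ to 3′ on the gene's strand and lie before the start of the RefSeq transcript, with the CArG boxes in capitals. The Dusp5 stretch is chr19:53529009-53529108 on the plus strand. The Mknk2 stretch is chr10:80676294-80676393 on the minus strand, inside the span that the deposited table gives for this gene but in no annotated exon of it.
Dusp5: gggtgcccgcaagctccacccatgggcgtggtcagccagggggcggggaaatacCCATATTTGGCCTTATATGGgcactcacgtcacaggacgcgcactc
Mknk2: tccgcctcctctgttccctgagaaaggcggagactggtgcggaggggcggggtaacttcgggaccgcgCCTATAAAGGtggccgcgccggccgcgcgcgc
No window of the 8 members held the AP-1 letters TGANTCA, the CRE letters TGACGTCA, the ETS letters CCGGAAG or the E-box letters CACGTG. These were found in 7.81%, 1.79%, 8.86% and 7.15% of all windows. Such matches describe the letters in these windows and were not tested against the expression values.

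Counts on genes ranged from 14188832 to 17238919 in the pancreas libraries and from 20825177 to 27928097 in the adipose libraries. Expression is given as CPM, counts relative to a common library total after scaling with edgeR's TMM factors within each tissue. As the tissues were scaled apart, levels set across tissues were not tested. A difference was called where edgeR's quasi-likelihood test gave a Benjamini-Hochberg adjusted p-value under 0.05 over all genes tested in that tissue and the fold change was at least 1.5. Acinar transcripts dominate the pancreas, and a list of 12 acinar genes took 45.9% to 47.2% of the control counts and 33.7% to 36.0% of the OA-AP counts. When libraries were scaled by their totals alone, the median log2 fold change of all pancreas genes was 0.71 higher. Defining acinar genes were near 0 in adipose tissue apart from control replicate 2, where the acinar list summed to 5294 CPM against 8.92 to 18.4 in the others. Adipocyte genes summed to between 30960 and 35410 CPM in adipose tissue and, in the pancreas, to 36.6 and 51.6 in the controls and 73.9 to 101.8 in OA-AP mice. The pancreatic sum came from Fabp4, Plin4 and Lipe, whereas Adipoq, Plin1, Lep, Cidec and Retn were near or at 0 there in both groups. Islet genes summed to 978.6 and 1200 CPM in control pancreas and to 1353 to 1642 in OA-AP pancreas. Most of the islet sum was Ins2, with means of 615.6 and 915.2 CPM, and Ins1, with 239.9 and 303.7 CPM, and neither was called. Of the 7 islet genes Iapp and Chga were called higher, while Gcg and Sst had lower means in OA-AP pancreas. Mesothelial genes summed to 108.7 and 120.1 CPM in control pancreas and to 246.4 to 451.8 in OA-AP pancreas. Most of the mesothelial sum was Krt18, with means of 101.1 CPM in control and 325.5 CPM in OA-AP pancreas. Msln, Upk3b, Wt1 and Lrrn4 had lower means in OA-AP pancreas, and none of them was called. The median log2 fold change of the 5 mesothelial genes was -1.12. The part of adipocytes, islet cells and mesothelial cells in the pancreatic values of the members was not tested. In bulk tissue, a change in the number of cells of a type cannot be told apart from a change in RNA per cell.

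In the pancreas 4 of the 9 members tested were called, Mknk2, Mapk14, Dusp5 and Spred1, all of them higher in the OA-AP group. Across all 12884 genes tested there, 16.2% were called higher and 13.5% lower. The median log2 fold change of the members was 1.26, against 0.04 over all tested genes, and it was 0.57 without OA-AP replicate 3, where 8 members were tested. For 7 of the 9 the groups did not overlap, as for 62.3% of all tested genes with these group sizes. Of the 9 members 5 had an unadjusted p-value under 0.05. DESeq2 called 5, adding Dusp4. With library totals alone 8 were called, and without either control library 2, Mknk2 and Mapk14. Dusp10 was too low to be tested. Each member's level in every library is plotted next.

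**Figure D1:**
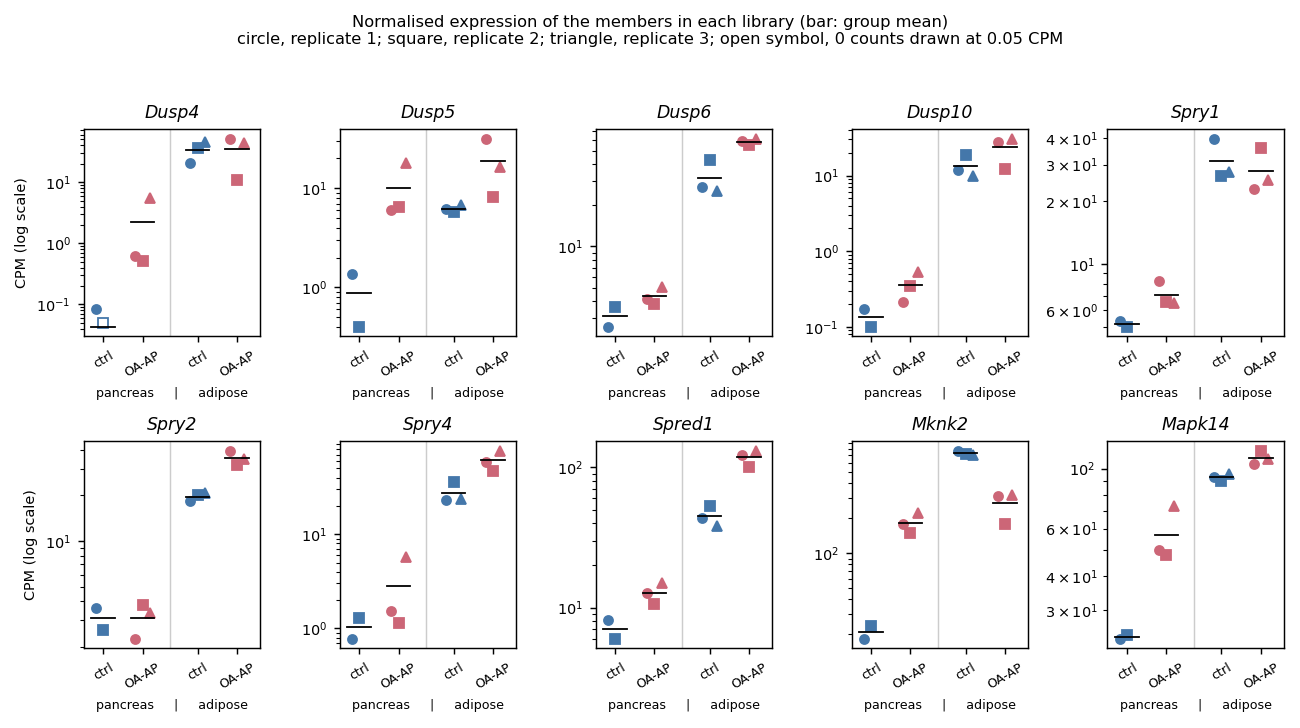
Expression of the 10 members in each library, in CPM on a log scale that differs between panels, with control libraries in blue, OA-AP libraries in red and a bar at each group mean. Pancreatic Mknk2 was at 18.2 and 23.4 CPM in the controls and at 148.2 to 223.3 CPM in OA-AP mice, whereas in adipose tissue it lay between 701.0 and 769.4 CPM in the controls and between 177.0 and 319.2 CPM in OA-AP mice.

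Mknk2 (ENSMUSG00000020190, chromosome 10 of GRCm38, 80665327 to 80678112, minus strand) was the member with the smallest p-value in the pancreas. It was read at 18.2 and 23.4 CPM in the control libraries and at 180.4, 148.2 and 223.3 CPM in the OA-AP libraries. Every OA-AP library was thus above both controls by a wide margin, and the lowest of them still rested on 2591 reads. The mean was 20.8 ± 3.71 CPM in control mice (SD, n = 2) and 184 ± 37.7 CPM in OA-AP mice (SD, n = 3), a fold change of 8.85 with a log2 fold change of 3.15 (SE 0.23, edgeR adjusted p = 0.000114). The call held in all 12 alternatives run, in which the log2 fold change lay between 2.94 and 3.86.

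Mapk14 (ENSMUSG00000053436, chromosome 17, 28691329 to 28748406, plus strand), which encodes p38α, was at 23.4 and 24.2 CPM in the pancreas of control mice. The OA-AP libraries held 50.1, 47.9 and 72.9 CPM, so the controls lay close together and all OA-AP libraries above them. Its fold change was 2.39, with a log2 fold change of 1.26 (SE 0.21, edgeR adjusted p = 0.00308), and it was called in the same 12 alternatives. In the control pancreas Mapk14 and Mknk2 were the most abundant members per length, at 5.45 ± 0.13 and 5.35 ± 0.95 CPM per kb of transcript (SD, n = 2), and their ranges overlapped. In OA-AP pancreas Mknk2 stood first at 47.3 ± 9.68 CPM per kb and Mapk14 second at 13.0 ± 3.16 (SD, n = 3), with no overlap.

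Dusp5 (ENSMUSG00000034765, chromosome 19, 53529109 to 53542431, plus strand) encodes a nuclear phosphatase specific for ERK. It was low in the control pancreas, at 1.37 and 0.40 CPM from 16 and 4 reads, and reached 5.99, 6.52 and 17.8 CPM in the OA-AP group. All OA-AP libraries were above both controls, and OA-AP replicate 3 was far above the other two. The log2 fold change was 3.46 (SE 0.77, edgeR adjusted p = 0.0175). The call held without OA-AP replicate 3, with a log2 fold change of 2.71, but was lost without control replicate 1 (adjusted p = 0.0643) and without control replicate 2 (adjusted p = 0.114).

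Dusp4, another nuclear MAPK phosphatase, was at the limit of detection in control pancreas, with 1 and 0 reads. The OA-AP libraries held 12, 9 and 105 reads, or 0.63, 0.51 and 5.49 CPM. The groups did not overlap, but most of the OA-AP reads came from replicate 3. The pooled ratio was 49.1, with an exact 95% interval of 8.65 to 1950 that covers counting error only. The edgeR adjusted p-value was 0.0837, and Dusp4 was called in 5 of 9 alternatives, among them DESeq2 (0.00651) and the fit without OA-AP replicate 2 (0.0459). Another was the edgeR fit with same-numbered samples as a block (0.0209), which joins different mice. OA-AP replicate 3 has no control of its number, so it did not enter the fold change of that fit. Without OA-AP replicate 1 or without OA-AP replicate 3 Dusp4 no longer passed the filter on low counts.

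Dusp6, the cytoplasmic phosphatase of ERK, was at 2.57 and 3.59 CPM in control pancreas and at 4.10, 3.78 and 5.07 CPM in OA-AP pancreas. The ranges were separate by a small margin, and the log2 fold change of 0.49 (SE 0.29, edgeR adjusted p = 0.225) was not called. Dusp10, which acts mainly on p38 and JNK, was represented by 2 and 1 reads in the controls and by 4, 6 and 10 in the OA-AP libraries. Its pooled ratio of 2.60 had an exact 95% interval of 0.77 to 13.7, so a difference was not detectable at this depth.

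Spred1 (ENSMUSG00000027351, chromosome 2, 117121374 to 117182279, plus strand), which brings the RAS inactivator neurofibromin to the membrane, was at 8.15 and 5.98 CPM in control pancreas. It was at 12.7, 10.6 and 15.1 CPM in the OA-AP group, with no overlap. The log2 fold change was 0.85 (SE 0.23, edgeR adjusted p = 0.0222), and this call was lost without control replicate 1 (adjusted p = 0.0588), without control replicate 2 (0.172) and without OA-AP replicate 1 (0.0768).

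The Sprouty genes, inhibitors of receptor tyrosine kinase signaling, did not pass the test in the pancreas. Spry1 was at 5.32 and 4.99 CPM in the controls and at 8.30, 6.58 and 6.49 CPM in OA-AP libraries, which did not overlap, with a log2 fold change of 0.47 (SE 0.22, edgeR adjusted p = 0.137). Spry2 lay between 2.26 and 3.78 CPM in all 5 libraries, and its groups overlapped, with a log2 fold change of 0.01 (SE 0.34). For Spry4 the controls were at 0.77 and 1.30 CPM, and OA-AP replicate 2 at 1.14 CPM lay between them. OA-AP replicate 1 was slightly above both at 1.52 CPM, and replicate 3 stood apart at 5.75 CPM. Its log2 fold change of 1.45 (SE 0.80, edgeR adjusted p = 0.203) fell to 0.34 when replicate 3 was left out.

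Pancreas OA-AP replicate 3 was thus far above every other pancreas library for Dusp4, Dusp5 and Spry4. In the same library 8 neutrophil marker genes summed to 99.6 CPM, against 13.8 and 4.18 CPM in the other OA-AP libraries and 1.72 and 2.79 in the controls. Of these 8 genes, 6 were tested in the pancreas and did not pass, among them S100a8, a calcium-binding protein of neutrophils, with a log2 fold change of 5.19 (edgeR adjusted p = 0.156). The 8 macrophage and monocyte markers summed to 98.7 CPM there, against 47.7 and 45.5 in the other OA-AP libraries and 26.3 and 45.7 in the controls. Of these markers 7 were tested, with a median log2 fold change of 0.09. Only Csf1r was called, and it was lower (log2 fold change -1.16, edgeR adjusted p = 0.0197). Cd14 was at 1.54 ± 0.36 CPM in the controls (SD, n = 2) and 28.4 ± 29.5 CPM in OA-AP mice (SD, n = 3). The part of neutrophils and macrophages in the levels of Dusp4, Dusp5 and Spry4 was not tested. Without OA-AP replicate 3 the same 4 members were called.

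In adipose tissue all 10 members were tested and 6 were called. Higher in the OA-AP group were Dusp5, Dusp6, Spry2, Spry4 and Spred1, and lower was Mknk2. Of all 15839 genes tested there, 12.1% were called higher and 13.0% lower. The median log2 fold change was 0.83 over the members and -0.01 over all tested genes, and the groups of 7 members did not overlap, as for 52.4% of all tested genes. DESeq2 called 6 members, and 7 had an unadjusted p-value under 0.05. Without control replicate 2, the library with acinar transcripts, 5 were called, and Dusp5 was the call that was lost.

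Spred1 had the smallest p-value of the members in adipose tissue. It was at 43.4, 53.1 and 38.3 CPM in the controls and at 123.2, 101.2 and 131.7 CPM in the OA-AP libraries, all of which were well above the controls. The log2 fold change was 1.40 (SE 0.15, edgeR adjusted p = 0.00114). The call held in all 13 alternatives run, and the log2 fold change was 1.54 without control replicate 2.

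Spry2 (ENSMUSG00000022114, chromosome 14, 105891947 to 105896819, minus strand) was at 18.2, 20.1 and 20.6 CPM in control adipose tissue and at 39.5, 31.8 and 34.8 CPM in the OA-AP group. The groups were tight and separate, with a log2 fold change of 0.85 (SE 0.11, edgeR adjusted p = 0.00198). Spry4 rose from 23.1, 35.5 and 23.4 CPM to 58.4, 46.8 and 77.4 CPM, also with no overlap, by 1.16 on the log2 scale (SE 0.24, edgeR adjusted p = 0.0107). Spry1 differed from both, since its control libraries at 40.0, 26.5 and 27.5 CPM overlapped the OA-AP libraries at 22.9, 36.0 and 25.2 CPM. Its log2 fold change was -0.16 (SE 0.22, edgeR adjusted p = 0.60), and it was 0.07 without control replicate 1.

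Dusp6 (ENSMUSG00000019960, chromosome 10, 99263231 to 99267489, plus strand) was at 27.2, 43.0 and 25.3 CPM in control adipose tissue and at 58.9, 55.1 and 61.8 CPM in the OA-AP libraries. The OA-AP libraries were close to each other and above all controls, of which replicate 2 was the highest. The log2 fold change was 0.88 (SE 0.20, edgeR adjusted p = 0.0148), and it was 1.17 without that control. Its call held in the 13 alternatives.

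Dusp5 was even among the controls, at 6.16, 5.76 and 6.77 CPM, and uneven in the OA-AP group, at 31.7, 8.13 and 16.4 CPM. No OA-AP library overlapped the controls, but replicate 2 was only slightly above them. The log2 fold change of 1.58 (SE 0.45, edgeR adjusted p = 0.0343) was called, and the call was lost in 6 of 13 alternatives. These were the fit without a filter on low counts (adjusted p = 0.127) and those without control replicate 1 (0.0906), 2 (0.086) or 3 (0.0825) or OA-AP replicate 1 (0.0501) or 3 (0.0567). Without OA-AP replicate 1 the log2 fold change was 0.98.

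Dusp4 was abundant in adipose tissue but did not separate the groups. The controls were at 20.8, 35.8 and 44.6 CPM and the OA-AP libraries at 51.7, 10.9 and 43.5 CPM, a log2 fold change of 0.07 (SE 0.55, edgeR adjusted p = 0.936). Its sign turned with library totals alone, with same-numbered samples as a block and without control replicate 1 or OA-AP replicate 1 or 3. Dusp10 was at 11.7, 18.5 and 9.97 CPM in the controls and at 27.5, 12.1 and 30.8 CPM in the OA-AP group, where replicate 2 lay within the control range. Its log2 fold change of 0.81 (SE 0.38, edgeR adjusted p = 0.142) became 1.13 without OA-AP replicate 2 (adjusted p = 0.0186) and was then called.

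Mknk2 was the most abundant member in control adipose tissue, at 187.5 ± 9.14 CPM per kb (SD, n = 3), followed by Mapk14 at 21.2 ± 0.64. The control libraries held 769.4, 718.5 and 701.0 CPM and the OA-AP libraries 313.9, 177.0 and 319.2 CPM. All OA-AP libraries were below all controls, and replicate 2 was the lowest. The mean, 729.6 ± 35.6 CPM in the controls, was 270.0 ± 80.6 CPM in OA-AP mice (SD, n = 3 each), and the log2 fold change was -1.43 (SE 0.23, edgeR adjusted p = 0.00387), with the call kept in all 13 alternatives. Mknk2 remained the member with the most CPM per kb in OA-AP adipose tissue, at 69.4 ± 20.7. Mapk14 was at 92.9, 90.1 and 95.7 CPM in the controls and at 104.3, 116.7 and 108.5 CPM in the OA-AP group. These ranges did not overlap, but its log2 fold change of 0.24 (SE 0.09, edgeR adjusted p = 0.0615) met neither threshold.

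Adipose OA-AP replicate 2 was the lowest of the 3 OA-AP libraries for 8 of the 10 members and the highest for the other two, Spry1 and Mapk14. Cell type markers also differed between the groups in this tissue. The 8 neutrophil markers summed to 19.9 to 38.8 CPM in the controls and 152.2 to 191.7 CPM in the OA-AP libraries, with 5 called higher and 1 lower of the 7 tested. The 7 fibroblast markers summed to 3359 to 4242 CPM in the controls and to 2028 to 2497 CPM in the OA-AP group, with 5 of the 7 called lower. The 8 T and B cell markers summed to 11.9 to 45.6 CPM in the controls and to 2.7 to 4.95 CPM in the OA-AP libraries, with 5 of the 7 tested called lower. The summed macrophage markers overlapped, at 605.2 to 837.8 and 756.3 to 1034 CPM, as did the summed adipocyte markers. Single markers did differ, and of the 8 macrophage markers 3 were called higher and 1 lower. Of the 8 adipocyte markers Lep was called higher and Plin1 lower. Fabp4 held the largest part of the adipocyte sum, with means of 16410 CPM in control and 18760 CPM in OA-AP adipose tissue. The part of these cells in the levels of the members was not tested.

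Whether the response to OA-AP differed between the tissues was tested with the tissue by condition term over all 11 libraries. For this term TMM factors were computed over the 11 libraries together. A tissue difference was called by an adjusted p-value under 0.05 alone, with no fold threshold. Of the 10 members 2 were called, Mknk2 and Mapk14, and of all 17046 genes in this fit 21.3% were called. For Mknk2 the adipose log2 fold change was lower than the pancreatic one by a difference of -4.60 (SE 0.35, edgeR adjusted p = 2.16e-05), and by p-value it ranked 22 of the 17046 genes. It was called higher in the pancreas and lower in adipose tissue, which was the case for 1.03% of the 11977 genes tested in both. In the control group Mknk2 was far lower in the pancreas than in adipose tissue, at 20.8 against 729.6 CPM. In OA-AP mice the ranges overlapped, at 148.2 to 223.3 CPM in the pancreas and 177.0 to 319.2 CPM in adipose tissue.

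For Mapk14 the difference was -1.03 (SE 0.23, edgeR adjusted p = 0.00776), as its increase was larger in the pancreas. Both differences were called in all 19 alternatives run. For the other 8 members the difference did not pass the test, which does not show that the tissues respond alike. Spry2, called in adipose tissue alone, had a difference of 0.84 (SE 0.30, edgeR adjusted p = 0.0714). It passed in 3 of 19 alternatives, among them DESeq2 (adjusted p = 0.0266), and was 0.01 with library totals alone. Dusp5 and Spred1 were called higher in both tissues, as were 3.88% of the genes tested in both. The tissue differences of these were -1.90 (SE 1.00) for Dusp5 and 0.54 (SE 0.27) for Spred1, and neither passed.

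**Figure D2:**
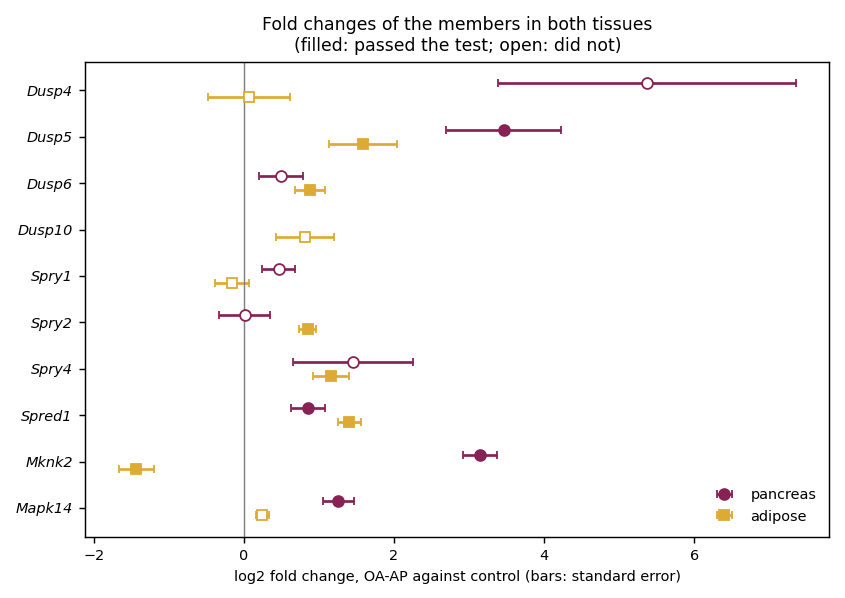
Log2 fold change of each member, OA-AP against control, in the pancreas (circles) and in adipose tissue (squares), with bars for the standard error. Filled symbols passed the test, Dusp10 was not tested in the pancreas, and Mknk2 lies at 3.15 for the pancreas and at -1.43 for adipose tissue. The pancreatic value of Dusp4 depends on 1 read in the controls.

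Other genes of the same pathways were counted by list, and these lists too were chosen with earlier results of these data known. Over all tested pancreas genes, 16.2% were called higher and 13.5% lower. In the pancreas 8 of 17 tested genes among the other feedback inhibitors and brakes were called, all higher, with a median log2 fold change of 0.89 over the 17. Cblb, a ubiquitin ligase that targets activated receptors, rose by 1.82 on the log2 scale (SE 0.19, edgeR adjusted p = 0.000437). Errfi1, an inhibitor of the EGF receptor, rose to 250.1 ± 131.4 CPM (SD, n = 3) over a control level of 13.2 ± 3.17 (SD, n = 2), and Spred2, the closest relative of Spred1, rose by 1.40 on the log2 scale. Of the 20 genes from the receptor adaptors to ERK and its RSK kinases 8 were called, all higher, with a median of 0.50. They included the phosphatase gene Ptpn11 (log2 fold change 0.97) and the adaptor gene Gab1 (0.91).

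Of 19 tested genes of the p38 and JNK cascades, 6 were called higher and 1 lower in the pancreas, with a median log2 fold change of 0.45. Mapk13, which encodes p38δ, rose by 1.89 on the log2 scale, and Mapkapk2 and Mapkapk3, whose products are kinases activated by p38, rose by 1.90 and 1.11. Of 14 tested ERK target genes, 6 were called higher and 2 lower, with a median of 1.07. The AP-1 subunit gene Junb reached 118.1 ± 57.5 CPM (SD, n = 3), against 3.88 ± 0.15 in controls (SD, n = 2). In contrast, the cyclin D1 gene Ccnd1 and the transcription factor gene Myc were lower, with log2 fold changes of -2.02 and -0.74. For Myc the value was -0.04 with library totals alone.

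Around Mknk2, 5 of the 11 tested genes for MNK substrates and cap-binding partners were called in the pancreas, all higher, with a median log2 fold change of 0.63. This list also held the related kinase gene Mknk1. It was at 175.9 ± 2.13 CPM in control pancreas (SD, n = 2) and 132.0 ± 18.5 CPM in OA-AP pancreas (SD, n = 3). The log2 fold change of Mknk1 was -0.41 (SE 0.15, edgeR adjusted p = 0.0599), and it was not called. Eif4g3, a scaffold of the cap-binding complex, had a log2 fold change of 1.10, the cap-binding homolog Eif4e2 one of 0.78 and the scaffold relative Eif4g2 one of 0.66. These list counts in the pancreas depend on the scaling and on single libraries. With library totals alone, between 8 and 18 genes of each list were called higher, and without either control library between 1 and 4. Of the 14 called pancreatic genes named here, Ccnd1, Myc, Eif4e2, Eif4g2 and Ptpn11 lost their call without control replicate 1. Spred2, Eif4g2, Mapkapk2 and Gab1 lost it without control replicate 2. None of the 14 changed direction in these fits. Without OA-AP replicate 1 the genes called higher were 5 of the brakes, 5 of the RAS to ERK genes, 3 of the p38 and JNK genes and 3 around MNK, and without OA-AP replicate 3 those around MNK were 2.

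In adipose tissue the ERK target genes had the most calls among the lists, 11 of 18 tested, all higher, with a median log2 fold change of 1.67. Junb rose by 2.45 on the log2 scale (SE 0.18, edgeR adjusted p = 0.000347), Fosl1, another AP-1 subunit gene, by 3.52 and the urokinase receptor gene Plaur by 1.70. Among 19 tested brakes 4 were called higher and 2 lower, with a median of 0.14. Over all tested adipose genes, 12.1% were called higher and 13.0% lower, so the brakes called lower were no larger a share than that. The ERK phosphatase gene Dusp9 rose from 2.45 ± 0.87 to 45.1 ± 34.0 CPM and Cblb from 45.1 ± 1.29 to 85.6 ± 11.4 CPM, while Lrig1, which restrains EGF receptors, fell from 74.7 ± 13.3 to 28.5 ± 3.21 CPM (SD, n = 3 each). Dusp9 lost its call in the fit without a filter on low counts (edgeR adjusted p = 0.0647), and without OA-AP replicate 2 the brakes called higher were 2 in place of 4. The brakes called lower were 1 in place of 2 without control replicate 1 or 3 or OA-AP replicate 1 or 3.

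Of the 20 RAS to ERK genes 2 were called in adipose tissue, both higher, Nras (log2 fold change 0.82) and Hras (0.70), with a median of 0.12. This was no larger a share than the 12.1% of all adipose genes called higher, and Hras lost its call with library totals alone, at a log2 fold change of 0.55. Of 20 tested p38 and JNK genes, 2 were called higher and 3 lower, near the shares over all genes (12.1% and 13.0%), and 1 was called lower without control replicate 1 or 3. Mapk11, which encodes p38β, and Map2k3, which encodes a kinase that activates p38, had log2 fold changes of 1.38 and 1.09, and the upstream kinase gene Map3k4 one of -0.90. Of the 12 genes around MNK, 3 were called, all higher, and 5 were without control replicate 1 or OA-AP replicate 2. They were Eif4e itself (log2 fold change 0.81), the helicase gene Eif4a1 (1.15) and Eif4ebp3 (2.16), whose product binds and represses eIF4E. Mknk2 and Eif4e thus moved in opposite directions in this tissue.

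**Figure D3:**
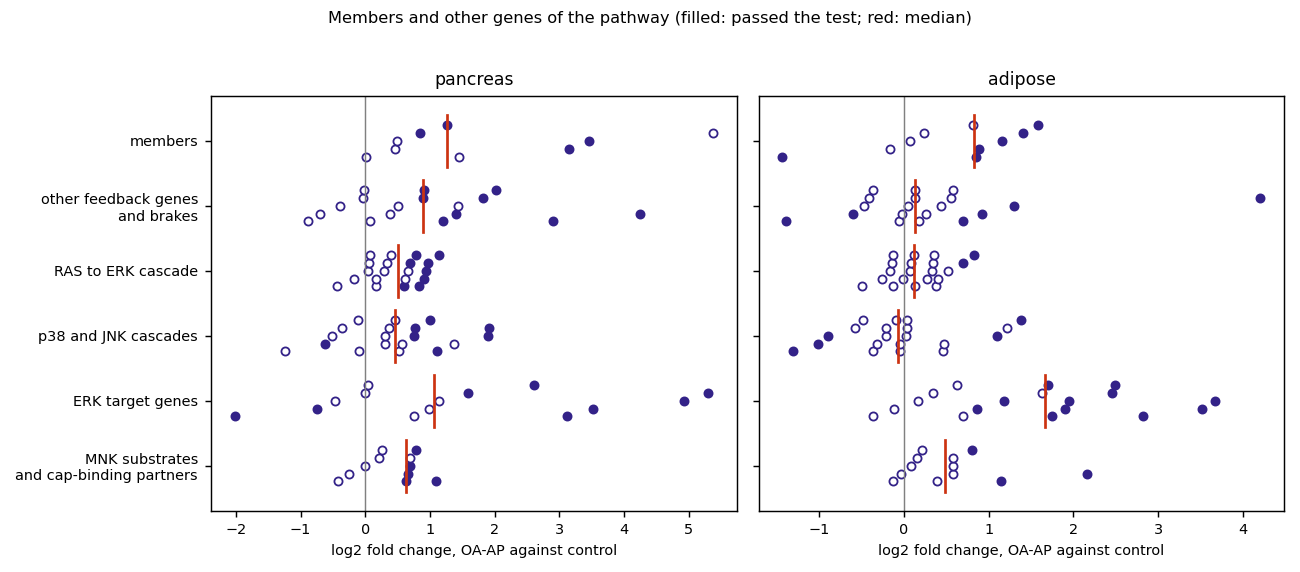
Log2 fold changes, OA-AP against control, of the members and of the other pathway genes tested in each tissue, 1 symbol a gene, filled where the test was passed, with a red line at the median and a different horizontal scale in each panel. In adipose tissue 11 of 18 ERK target genes were called higher, against 2 of 20 RAS to ERK genes.

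The genes whose expression was most like that of Mknk2 over the 11 libraries, after the mean of each tissue was subtracted from log2 CPM, were Slc17a5 (Pearson r = 0.984), Hs6st1 (0.983) and Tox (0.974). Those most like Dusp6 were Ccl12 (0.952), Shisa5 (0.952) and Arg2 (0.951). They were picked as the highest of 11977 genes and the libraries share their 2 conditions, so these values are a description. The Dusp6 neighbor Arg2 had log2 fold changes of 1.22 in the pancreas and 2.89 in adipose tissue, and the Mknk2 neighbor Tox had 3.88 and -2.58.

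The strand setting of the counting was not given in the sources used here, and in GENCODE M21 exons of Dusp5 and Spry1 overlap a gene on the other strand. Without strand, reads of the overlapping genes cannot be told apart. The gene overlapping Spry1, Gm42922, held at most 1 count in a pancreas library and 4 in an adipose library. The gene overlapping Dusp5, AC137853.2, was not listed for either tissue, so its part in the Dusp5 counts could not be looked at.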

How the data were processed

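Per the labels and the study's methods, the authors trimmed reads with Trim Galore 0.6.6, checked them with fastp 0.20.1, mapped them to GRCm38 with STAR and counted them with featureCounts 2.0.1. They deposited whole-number counts per gene, not normalized. The annotation release was not given in the sources used here. Here edgeR 4.0.16 (R 4.3.3) was run on each tissue apart with filterByExpr, which kept 12884 of 23572 pancreas and 15839 of 27409 adipose genes with a count, TMM factors and the robust quasi-likelihood test. Each standard error is the size of the log2 fold change over the root of its F statistic. CPM per kb used the length in the pancreas table. Log2 CPM for likeness used a prior count of 2. All members are named, with up to 3 called genes of smallest p-value per pathway list and tissue, the related kinase gene Mknk1 and the 3 genes most like Dusp6 and Mknk2. An item under this rule is not reported here. The members and lists, with those of cell type markers, were chosen with earlier results of these data known. Replicates are labelled as separate samples, and their counts differed beyond counting noise (chi-square over degrees of freedom at least 6.91). If they share animals, p-values measure technical spread. The alternatives, DESeq2 1.42.0 among them, were other scalings, filters and fold thresholds, each library left out, and a replicate block. The tests were tested on simulated data.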

Additional observations from a re-analysis of the deposited data

Results flagged for a closer look

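Mknk2 and Mapk14 are given here because their response to OA-AP differed between pancreas and adipose tissue by the tissue by condition test of edgeR over 11 libraries. The difference in log2 fold change, adipose minus pancreas, was -4.60 for Mknk2 (adjusted p = 2.16e-05), which was higher in 3 of 3 OA-AP pancreas libraries than in any control and lower in 3 of 3 OA-AP adipose libraries. For Mapk14 it was -1.03 (adjusted p = 0.00776), with all OA-AP libraries above all controls in both tissues. Both values come from different tissues with 2 or 3 libraries in each group, and diet, ethanol and pancreatitis cannot be told apart in either.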

How the results depend on the processing

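In the pancreas the scaling gave the largest count of members. With library totals alone 8 members were called in the pancreas in place of 4, and 4 tissue differences in place of 2. DESeq2 also gave 4 tissue differences. With each library left out in turn, 2 to 5 members were called in the pancreas, 5 to 7 in adipose tissue and 2 to 3 as tissue differences. The pancreas count was 2 without control replicate 1 and 2 without control replicate 2, fits in which the lone control was assumed to vary like the OA-AP libraries. Over all pancreas genes, 3834 calls became 6349 with library totals alone, 1687 without control replicate 1 and 1495 without control replicate 2, and the share of calls that were higher rose from 54.5% to 92.0% with library totals alone. In adipose tissue that share fell from 48.1% to 32.1%, and the median of all genes moved by -0.15.

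Among the settings run, the sign of a member's fold change or tissue difference turned only where that value had not passed its own test. The log2 fold change of Spry2 in the pancreas was -0.02544 with DESeq2 size factors and -0.02528 with DESeq2, -0.0774 with the replicate block, and -0.20 to 0.27 with libraries left out. That of Dusp4 in adipose tissue was -0.10 with library totals alone, -0.11 with the replicate block, and -0.30 to 0.50 with libraries left out. Spry1 in adipose tissue ranged from -0.38 to 0.06503 with libraries left out. Tissue differences turned to -0.47 for Dusp6 and -0.29 for Spred1 with library totals alone, and for Spry4 ranged from -0.72 to 0.75 with libraries left out. The cause was not tested.

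Control and OA-AP samples that carry the same number are different mice, so the numbers were not taken as pairs. Their deviations correlated between -0.163 and 0.0562, and those of samples with different numbers between -0.25 and 0.293. With 2 or 3 libraries in a group, deviations from the group mean depend on each other, so these values cannot show whether numbers pair. With the replicate block 5 members were called in the pancreas, adding Dusp4 (edgeR adjusted p = 0.0209), 6 in adipose tissue and 2 tissue differences, and it changed no other call of a member. In the fit of each tissue this block joins different mice. Pancreas OA-AP replicate 3 has no control of its number, so it did not enter the pancreatic fold changes with the block. Pancreas and adipose samples with different numbers correlated between -0.119 and 0.082, and those with the same number between -0.0505 and 0.13. The labels do not say whether these came from the same mouse. The main tissue by condition fit treated all 11 libraries as independent. Counts under about 10 reads, as for Dusp4 and Dusp10 in control pancreas, limit what the depth can show.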
